A study of Mus musculus with 45 samples.

Results

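The guanylate-binding proteins are a family of large GTPases. Members were matched by gene symbol in the table of normalized values and then by Ensembl identifier in the table of counts. All 9 genes listed for the family, Gbp2, Gbp2b, Gbp3, Gbp4, Gbp5, Gbp6, Gbp7, Gbp8 and Gbp9, were found among the 29307 genes of the count table, and all 9 were among the 12905 genes with enough reads to be tested. Gbp10 and Gbp11 were also in the table and are described after the members. The RNA came from bone marrow-derived macrophages of C57BL/6N mice aged 6 to 10 weeks that carried Famin p.254I, p.254V or p.284R, 5 mice for each, and these groups are called 254I, 254V and 284R here. FAMIN, encoded by Lacc1, is a macrophage enzyme of purine metabolism. The 254I form is the non-risk form, 254V is the common Crohn's disease risk form, and 284R is a rare form that causes monogenic inflammatory disease. Macrophages were grown from bone marrow for 6 days with M-CSF and then kept for 24 h without a polarizing stimulus (M0), with IFN-γ at 50 ng/mL plus LPS at 20 ng/mL (M1), or with IL-4 at 20 ng/mL (M2). This gave 45 libraries in 9 groups of 5. Mice were littermates from heterozygous breeding, and the 3 libraries that share a genotype and a number were taken as cultures of 1 mouse. All groups share the strain and the culture in M-CSF, and the altered Famin forms are present in every cell.

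Guanylate-binding proteins are among the genes most strongly induced by interferon in macrophages. IFN-γ acts through its receptor and the kinases JAK1 and JAK2 and raises IRF1, a factor that binds interferon-stimulated response elements (ISRE). Promoters of genes that answer to IFN-γ often hold these elements or gamma-activated sites (GAS). LPS acts through TLR4 and adds an autocrine type I interferon signal. The proteins assemble on pathogen-containing vacuoles and on bacteria in the cytosol, where they help to break the membrane and to expose LPS to caspase-11, encoded by Casp4. Some members, among them GBP2 and GBP5, end in a CaaX motif that is prenylated and anchors the protein to membranes. IL-4 signals through STAT6 and drives the alternative, M2, programme.

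The members lie in 2 clusters in the mm10 build, as annotated by GENCODE. Gbp5 (chr3:142493978-142522344), Gbp7 (chr3:142530342-142550149), Gbp3 (chr3:142560026-142573209), Gbp2b (chr3:142594847-142619179) and Gbp2 (chr3:142620602-142638008) follow each other on the plus strand. Gbp8 (chr5:105014150-105139540), Gbp9 (chr5:105077630-105139539), Gbp4 (chr5:105115767-105139586) and Gbp6 (chr5:105270702-105293698) are on the minus strand. The extents of Gbp8, Gbp9 and Gbp4 overlap, although they share only 60 or 61 exon bases. Gbp6 shares 1726 exon bases, 29.0% of its exon length, with the annotated gene Gm43302 on the same strand. Gbp7 shares 637 exon bases with the processed pseudogene Gm43802. The family has near-identical stretches. Of the 50-base windows in the transcripts of Gbp6, 70.7% also occur in another gene, against 18.1% for Gbp8, 12.7% for Gbp7 and between 1.4% and 8.0% for the other members. Values of Gbp6 are therefore uncertain, since reads of 50 bases can be split between it and its neighbours, and how shared reads were counted is not given in the sources used here.

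RefSeq promoter windows (GRCm38.p6, from 250 bases before to 50 bases after the start site) were at hand for 5 of the 9 members, all of the chromosome 3 cluster, in 6 windows. The 4 shown here belong to a pair of members that were higher in M2 than in M0 and a pair that were lower, while all 4 were higher in M1. Capitals mark GAS letters (TTC and GAA with 3 bases of any kind between them), the same letters with a spacing of 4, and the ISRE core (GAAA, 2 bases of any kind, GAAA). All were searched on both strands, and an ISRE core on the other strand reads here as TTTC, 2 bases and TTTC.
Gbp2, chr3:142620413-142620712: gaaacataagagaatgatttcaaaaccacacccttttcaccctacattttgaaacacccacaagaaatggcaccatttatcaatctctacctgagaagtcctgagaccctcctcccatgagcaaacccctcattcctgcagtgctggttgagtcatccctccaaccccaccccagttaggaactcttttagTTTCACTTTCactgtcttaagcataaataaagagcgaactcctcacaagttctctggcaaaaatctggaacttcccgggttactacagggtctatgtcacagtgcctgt
Gbp2b, chr3:142594597-142594896: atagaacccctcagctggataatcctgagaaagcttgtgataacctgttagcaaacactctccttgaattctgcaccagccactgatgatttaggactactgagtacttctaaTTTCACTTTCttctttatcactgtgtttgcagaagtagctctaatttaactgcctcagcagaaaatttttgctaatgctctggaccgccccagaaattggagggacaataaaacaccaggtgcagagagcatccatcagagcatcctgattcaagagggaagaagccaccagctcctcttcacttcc
Gbp5, chr3:142496684-142496983: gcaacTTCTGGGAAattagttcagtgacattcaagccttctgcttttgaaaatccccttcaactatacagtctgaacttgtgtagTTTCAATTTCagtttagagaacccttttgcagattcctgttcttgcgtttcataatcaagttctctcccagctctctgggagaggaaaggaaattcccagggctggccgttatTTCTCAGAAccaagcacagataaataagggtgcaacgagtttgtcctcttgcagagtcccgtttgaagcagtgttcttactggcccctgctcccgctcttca
Gbp7, chr3:142530086-142530385: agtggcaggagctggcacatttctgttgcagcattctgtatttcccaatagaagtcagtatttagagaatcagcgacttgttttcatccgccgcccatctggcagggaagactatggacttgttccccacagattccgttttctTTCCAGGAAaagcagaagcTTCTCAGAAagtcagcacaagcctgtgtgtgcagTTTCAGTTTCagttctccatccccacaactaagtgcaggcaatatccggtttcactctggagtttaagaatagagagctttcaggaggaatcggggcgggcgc
Gbp2 and Gbp2b each held a single ISRE core, 59 and 137 bases before the start site, and no GAS letters. Gbp5 and Gbp7 each held 2 GAS matches and 1 ISRE core. Of the 2 windows of Gbp3, the first held 2 overlapping ISRE cores and the second held neither, but 1 match to the spacing of 4, which STAT6 prefers. Among all 32851 promoter windows of this length, 8.3% held the GAS letters, 7.0% the spacing of 4 and 3.4% the ISRE core. A match is a description of letters and shows no binding, and 5 members are too few to relate it to the response.

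Libraries held between 17239009 and 43740283 reads in genes, with a median of 27553642, so that 1 CPM, a read count scaled to the library total, was worth between 17.2 and 43.7 reads. Summed macrophage markers (Adgre1, Csf1r, Cd68, Itgam, Mertk and Fcgr1) ranged from 5432 to 11008 CPM. Arg1, the defining M2 gene, did not exceed 0.719 CPM in M0 and was at 705 CPM or more in M2. In M1 it had a median of 0.653 CPM, with 1 library at 40.8. Of the other M2 markers, Retnla and Chil3 were at 716 CPM or more in M2, while Mrc1 was already at 639 to 896 CPM in M0 and at 773 to 2197 in M2. Of the M1 markers, Cxcl9 ranged from 979 to 5340 CPM, Cxcl10 from 309 to 1220 and Nos2 from 3.01 to 149 in M1, whereas Il12b did not exceed 0.201. The T cell gene Cd3e did not exceed 0.122 CPM in any library, although Cd4 reached 46.6 CPM in M0. Summed neutrophil markers ranged from 18.8 to 196 CPM in M0, from 28.5 to 94.4 in M1 and from 12.7 to 58.1 in M2. Summed B cell and NK cell markers stayed at or below 0.487 CPM and erythroid markers at or below 0.0426. Summed dendritic cell markers had a median of 0.795 CPM in M0, 8.78 in M1 and 7.44 in M2, and summed stromal markers 32.0, 11.1 and 16.8. These lists differed between polarizations, and their part in the members' results was not tested. Lacc1, the gene altered in the mice, was measured in each library. In M1 macrophages it stood at 501, 490, 509, 486 and 523 CPM in 254I replicates 1 to 5, at 542, 545, 537, 597 and 533 in 254V, and at 396, 263, 218, 584 and 553 in 284R, in which replicates 4 and 5 were level with the other genotypes. The M0 and M2 cultures of these 2 mice, at 160 to 200 CPM, were likewise level with or above the other genotypes. The altered bases are not in a count table, so the genotype labels could not be checked from it. Levels in M0 differed by replicate number across genotypes, and the M0 library of 254I replicate 4 stood apart, so results that rest on it are given with and without it. In bulk RNA, fewer expressing cells and less RNA per cell cannot be told apart.

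M1 polarization raised every member. In the comparison of 15 M1 with 15 M0 libraries, averaged over genotypes, 9 of 9 members were higher in M1 at an adjusted p under 0.05 (edgeR quasi-likelihood test, Benjamini-Hochberg over all genes tested), and 0 were lower. Of all genes, 37% were called higher and 40.3% lower. The members' median log2 fold change was 6.49, beside -0.03 over all genes. Summed over the 9 members, M1 libraries held between 15073 and 16919 CPM, which is 1.51% to 1.69% of the TMM-scaled total. M0 libraries held between 88.6 and 374 CPM and M2 libraries between 116 and 259. For 9 of 9 members every M1 library was above every M0 library, which held for 15.2% of all genes tested.

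**Figure D1:**
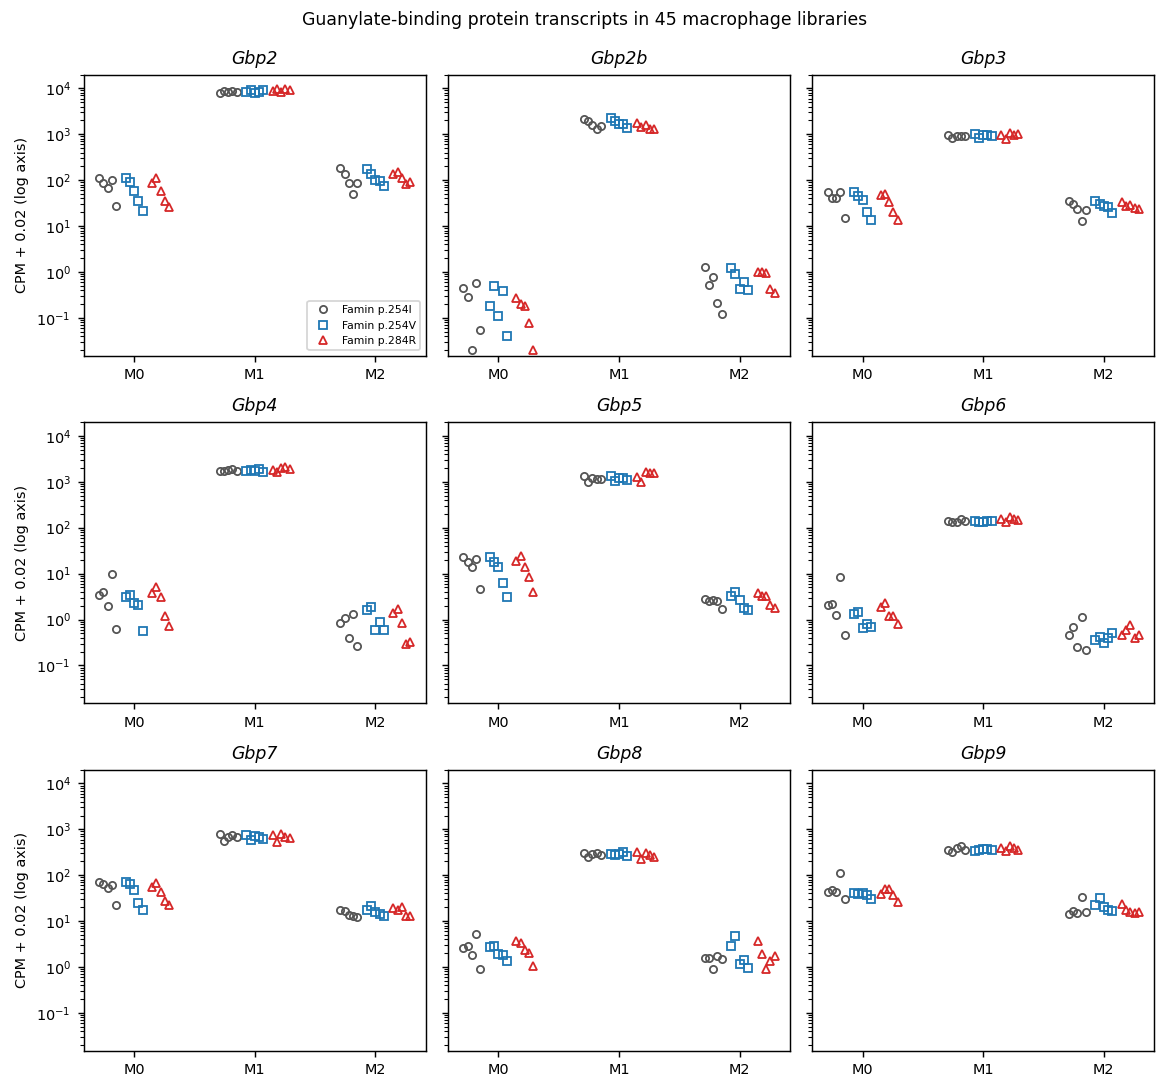
TMM-scaled CPM of the 9 members in each of the 45 libraries, on a log axis with 0.02 added, by polarization and with the genotypes as different symbols. Every member is higher in all 15 M1 libraries than in any M0 or M2 library, and the 3 genotypes lie over each other.

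Gbp2b, also called Gbp1 and close in sequence to Gbp2, moved the most. It was almost absent in M0, with 89 reads over 15 libraries, 2 libraries at 0 and a highest value of 0.548 CPM. In M1 it ranged from 1280 to 2230 CPM, with a median of 1608. The fitted change was 13.03 on the log2 scale, with an SE of 0.258 and a 95% confidence interval of 12.5 to 13.5 (adjusted p = 2.54e-34 in edgeR). It ranked 1 among the 12905 genes tested. Gbp4 rose from a median of 3.05 CPM (0.539 to 9.62) to 1783 CPM (1632 to 2111), a log2 fold change of 9.28 (SE 0.303) and rank 15. Gbp2, a vacuole-targeting member with a CaaX end, had the highest CPM of the 9 members in all 15 M1 and all 15 M2 libraries and in 9 of the 15 M0 libraries, while Gbp9 was higher in the other 6. In M0 its lowest, median and highest values were 21.1, 66.2 and 111 CPM, and in M1 they were 8045, 8601 and 9829 CPM. Its log2 fold change was 7.01 (SE 0.26), a 128-fold rise.

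Gbp8, Gbp6 and Gbp5 changed by similar amounts. Gbp8 rose from a median of 2.35 to 283 CPM (log2 fold change 6.87, SE 0.196) and Gbp6 from 1.26 to 140 CPM (6.49, SE 0.202). Gbp5, a CaaX member known to promote NLRP3 inflammasome assembly, rose from a median of 14.2 CPM (3.15 to 23.9) to 1192 CPM (984 to 1648), a log2 fold change of 6.47 (SE 0.252). The 95% confidence intervals of these 3 members overlap with each other and with that of Gbp2. The smallest rises were those of Gbp3, Gbp7 and Gbp9. Gbp3 rose 25.9-fold from 40.5 to 941 CPM, Gbp7 14.4-fold from 53.5 to 691 CPM, and Gbp9 8.47-fold from 41.2 to 363 CPM, all given as medians of 15 libraries.

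**Figure D2:**
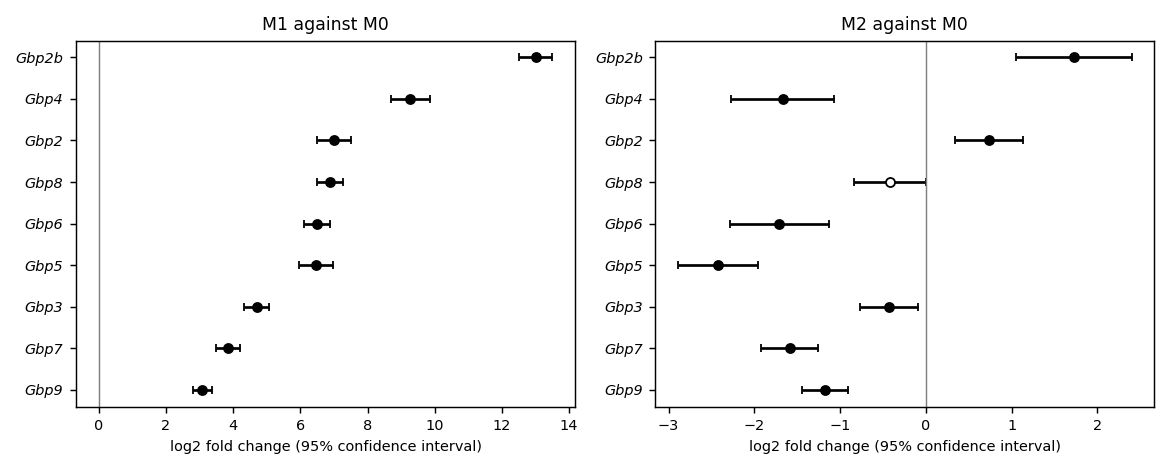
Log2 fold changes of the 9 members with 95% confidence intervals from edgeR, for M1 against M0 on the left and M2 against M0 on the right, averaged over genotypes. Filled points are called at an adjusted p under 0.05. Each member lies between 3.08 and 13.03 in M1, whereas in M2 only Gbp2 and Gbp2b lie above 0.

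Levels of different members were compared per kilobase of merged exon length. In M1, Gbp2 stood at 3468 ± 213 CPM per kilobase (SD, n = 15), followed by Gbp2b at 588 ± 109, Gbp3 at 286 ± 23.6, Gbp4 at 240 ± 17.6, Gbp5 at 189 ± 30.6 and Gbp7 at 122 ± 15.3. Gbp8 at 82.1 ± 8.12, Gbp9 at 71.8 ± 6.34 and Gbp6 at 24 ± 1.74 were lowest. Neighbours in this order differed by more than the sum of their SDs, except for Gbp8 and Gbp9. The place of Gbp6 is uncertain, since 70.7% of its 50-base windows also occur in another gene. In M0 the order differed. Gbp2 led at 27.1 ± 13.1 CPM per kilobase, Gbp3, Gbp9 and Gbp7 followed at 11.1, 8.59 and 8.47, and Gbp2b was last at 0.0725. Gbp2b thus moved from rank 9 in M0 to rank 2 in M1. Gbp2 made up between 23.8% and 35.8% of the members' summed CPM in M0, between 50.8% and 61.6% in M1 and between 43.2% and 71.6% in M2.

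The spread between libraries narrowed in M1. The coefficient of variation over 15 libraries had a median over members of 48.4% in M0 (42.0% to 110%), 8.84% in M1 (6.13% to 18.5%) and 33.7% in M2 (19.0% to 58.9%). Without 254I replicate 4 the M0 median was 46.6%, and the range was 17.6% to 89.8%, because Gbp9 moved from 45% to 17.6% and Gbp6 from 110% to 46.6%. The lowest M0 value then lay within the range of M1. Gbp2 varied by 5.29 times between its lowest and highest M0 library and by 1.22 times in M1. In each of the 15 mice, each of the 9 members was higher in the M1 than in the M0 culture.

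M2 polarization split the family. Of the 9 members, 2 were higher in M2 than in M0, 6 were lower and 1 was not called, beside 36.8% of all genes called higher and 39.6% called lower. The members' median log2 fold change was -1.18 (all genes -0.03). Gbp2 was higher in M2, with a lowest, median and highest value of 50.2, 98.4 and 184 CPM, although its range overlapped with that of M0. On the log2 scale it rose by 0.73 with an SE of 0.202 (adjusted p = 0.00137 in edgeR), and it was higher in 14 of 15 mice. Gbp2b rose from a median of 0.166 to 0.575 CPM, by 1.72 on the log2 scale with an SE of 0.345 (adjusted p = 2.53e-05 in edgeR), also in 14 of 15 mice. At these levels Gbp2b rests on few reads, 260 over the 15 M2 libraries. The exception in both cases was the mouse 254I replicate 4, in which Gbp2 fell from 98.6 to 50.2 CPM and Gbp2b from 0.548 to 0.186. Without that mouse the log2 fold changes were 0.84 and 1.97. Within single genotypes Gbp2 was called in 254V and 284R (0.87 and 0.83 on the log2 scale) and not in 254I (0.49, SE 0.349). The difference between genotypes did not pass the interaction test (adjusted p = 1 in edgeR for both terms).

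Gbp5 fell the most. Its M0 values of 3.15 to 23.9 CPM compare with 1.60 to 3.86 CPM in M2. It fell by 2.43 on the log2 scale with an SE of 0.238 (adjusted p = 7.6e-12 in edgeR), and it was lower in 15 of 15 mice. Gbp6 (-1.71, SE 0.295), Gbp7 (-1.59, SE 0.168) and Gbp9 (-1.18, SE 0.137) were also lower in 15 of 15 mice, and Gbp4 (-1.67, SE 0.307) in 14 of 15. Gbp7 had a median of 15.4 CPM in M2, with a range of 12.2 to 21.7 that overlapped with M0 (17.3 to 72.7).

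Gbp3 and Gbp8 were the uncertain members. Gbp3 changed by -0.44 on the log2 scale with an SE of 0.173 (adjusted p = 0.0216 in edgeR) but was higher in M2 in 5 of 15 mice, namely replicate 5 of each genotype and replicate 4 of 254V and 284R. Its adjusted p was 0.0886 without 254I replicate 4 and 0.0715 without 284R replicate 2. In limma-voom it was 0.117, or 0.078 where the mouse entered as a random block. It was 0.0591 when only the M0 and M2 libraries were fitted. Gbp8 was at -0.41 on the log2 scale with an SE of 0.215 (95% confidence interval -0.835 to 0.00551, adjusted p = 0.0767 in edgeR). It was called in limma-voom where the mouse entered as a random block (adjusted p = 0.0472), without TMM scaling (0.0357) and when 284R replicate 1, 254V replicate 2 or 254I replicate 5 was left out (0.0437, 0.0245 and 0.0384).

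Against M2, 9 of 9 members were higher in M1, beside 39% of all genes called higher and 40.1% called lower. Log2 fold changes ranged from 4.26 for Gbp9 to 11.30 for Gbp2b, with a median of 7.29. This comparison shares the M1 libraries with that against M0. Gbp5 had a log2 fold change of 8.90 against M2 and 6.47 against M0. Gbp2 had 6.27 against M2 and 7.01 against M0.

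In unstimulated macrophages the members' levels differed more by replicate number than by genotype. For Gbp2, replicates 1 to 5 stood at 111, 86.0, 66.2, 98.6 and 27.5 CPM in 254I, at 109, 91.3, 58.3, 35.7 and 21.1 in 254V, and at 86.5, 110, 59.5, 35.5 and 26.6 in 284R. Apart from replicate 4 of 254I, libraries of the same number lay close together, and the 3 libraries of number 5 were the lowest. Gbp5 showed the same order. Its values were 23.1, 17.6, 14.0, 20.5 and 4.65 CPM in 254I, 22.8, 17.7, 13.7, 6.28 and 3.15 in 254V, and 18.7, 23.9, 14.2, 8.31 and 3.91 in 284R. For 7 of the 9 members, all but Gbp2b and Gbp6, the 3 lowest M0 libraries were those of number 5. The number accounted for a median of 71.5% of a member's variance of log2 CPM over the 15 M0 libraries (39.5% to 86.0%), beside a median of 4.66% for the genotype (1.49% to 18.0%). The number has more levels than the genotype, which by itself gives it a larger share. These values were not determined over all genes. The number was not particular to the members, since same-numbered M0 libraries of different genotypes deviated together over 8404 genes (median r 0.68). What the number stands for is not given in the sources used here, so what it shares (a day, a litter or a lane) is not known.

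Other lists moved with the number in M0. The summed IFN-γ signalling genes averaged between 1554 and 1615 CPM in M0 libraries of numbers 1 to 4 and 1238 CPM in number 5, and the summed immunity-related GTPases between 317 and 459 CPM and 184 CPM. Summed neutrophil markers averaged 93.7, 166, 44.9, 41.6 and 22.1 CPM in numbers 1 to 5, and summed macrophage markers 9589, 9563, 10511, 9610 and 7968 CPM. Their part in the members' levels was not tested.

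**Figure D3:**
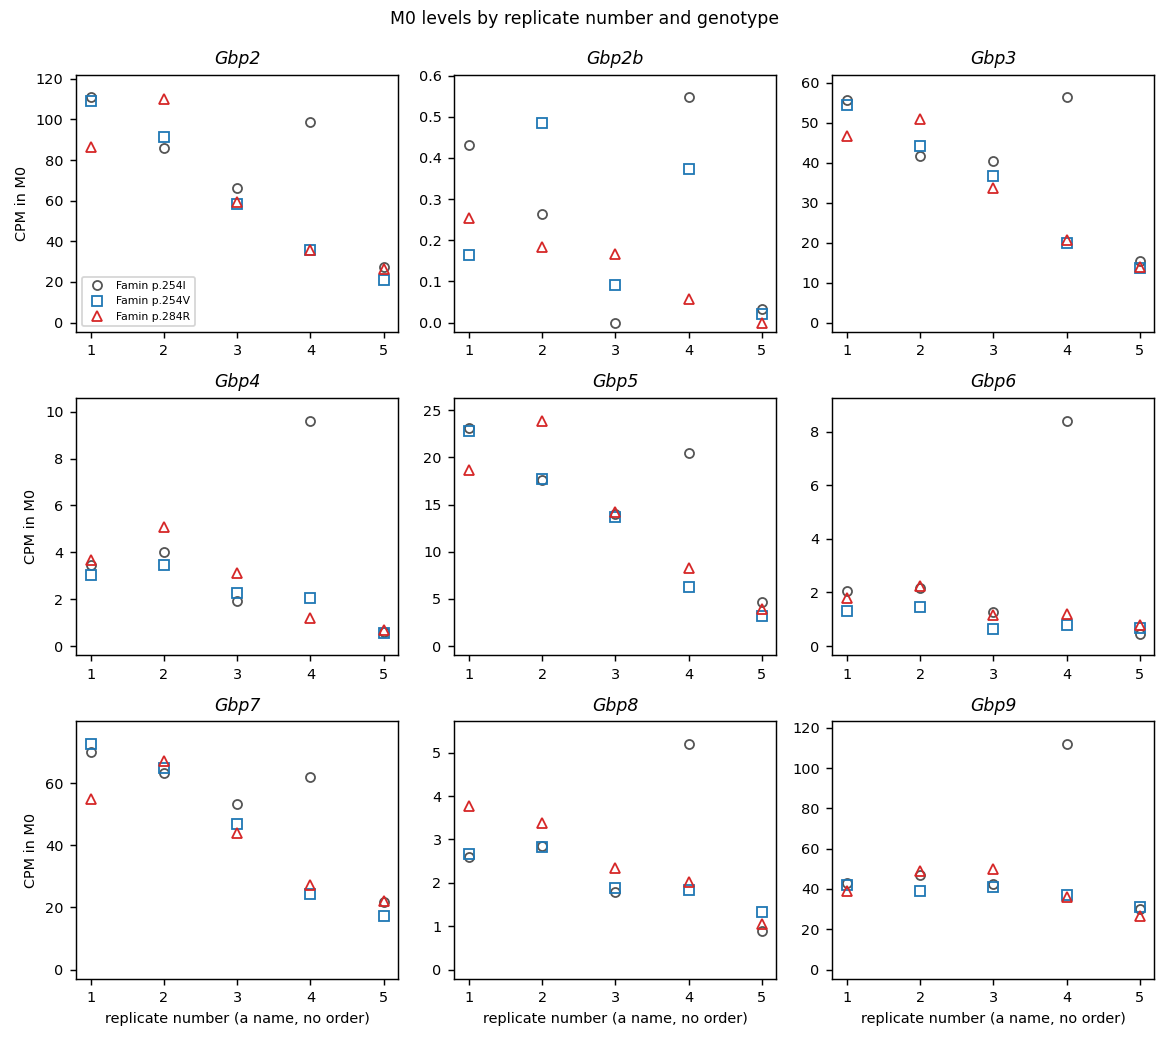
CPM of each member in the 15 M0 libraries against the replicate number, with the 3 Famin genotypes as different symbols and a linear axis from about 0. Libraries of number 5 are the 3 lowest for 7 members, libraries of 1 number are mixed with others for Gbp2b and Gbp6, and replicate 4 of 254I is the highest of all 15 for 6 of the 9 members.

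In M1 the numbers separated the libraries in another way. The number accounted for a median of 57.7% of a member's variance there (26.3% to 87.3%) and the genotype for 17.6% (1.21% to 38.6%). For Gbp6 the share of the genotype was the larger, at 38.6% beside 26.3%. For Gbp3, Gbp5 and Gbp7 the 3 lowest M1 libraries were those of number 2. Gbp7 averaged 549 CPM in number 2 and between 655 and 770 CPM in the others, and Gbp5 averaged 1015 CPM and between 1283 and 1350 CPM. Gbp2 did not share this. Its average was 9239 CPM in number 2 and between 8308 and 8890 CPM in the others. Summed M1 markers averaged 1767 CPM in number 2 and between 3666 and 4799 CPM in the other numbers. Summed neutrophil markers averaged 77.9 CPM in number 2 and between 38.9 and 43.5 CPM in the others. In M2 the number accounted for a median of 63.9% of a member's variance (17.7% to 80.7%) and the genotype for 7.98% (1.96% to 10.8%). Number 5 had the lowest M2 mean for 6 of the 9 members.

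The M0 library of 254I replicate 4 was the highest of all 15 for Gbp2b, Gbp3, Gbp4, Gbp6, Gbp8 and Gbp9. Gbp6 stood at 8.41 CPM there and between 0.441 and 2.24 CPM in the other 14 M0 libraries. Gbp9 stood at 112 CPM and between 26.7 and 50.1, and Gbp4 at 9.62 CPM and between 0.539 and 5.10. Some other interferon-responsive genes were also high in this library, but not all. Summed immunity-related GTPases were at 898 CPM (165 to 394 in the others) and summed IFN-γ signalling genes at 1899 CPM (1211 to 1652). Summed M1 markers, which in M0 are mostly Cxcl10, were at 16.5 CPM, within the range of the others (3.4 to 22.9). Ifit2 was at 969 CPM (46.3 to 282 in the others) and Iigp1 at 77.6 CPM (2.68 to 27.4). Summed macrophage markers at 10520 CPM and neutrophil markers at 63.6 CPM were within the range of the others, and its 24722327 reads were too. Stromal markers at 15.7 CPM (21.1 to 84.6 in the others), dendritic cell markers at 0.352 CPM (0.459 to 1.35) and B cell markers at 0 (0.0276 to 0.361) were the lowest of all 15. Their part in the members' levels was not tested. In the M2 culture of the same mouse, Gbp9 at 33.7 CPM was also the highest of 15, and Gbp6 at 1.14 CPM too, whereas Gbp2 at 50.2 CPM and Gbp3 at 12.9 CPM were the lowest.

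No member was called in any comparison of genotypes that was tested. In edgeR, 0 of 9 members passed for 284R against 254I averaged over polarizations, where 0.0155% of all genes were called. The same held within M0 (0% of genes), M1 (0.263%) and M2 (0.00775%). For 254V against 254I, 0 of 9 members were called on average (0.0155% of genes), within M0 (0%), within M1 (0%) and within M2 (0%). Between 284R and 254V, 0 of 9 were called on average (0%) and within M1 (0.0775%). That pair of genotypes was not tested within M0 or M2. DESeq2 and limma-voom also called 0 members in each of these comparisons. At an unadjusted p under 0.05, 1 member (Gbp6) passed in 284R against 254I within M0, beside 1.08% of all genes. For 254V against 254I, 2 (Gbp6 and Gbp9) passed within M0 beside 1.79% of genes and 1 (Gbp6) on average beside 2.5%, and 0 in the other 7 comparisons. The ranges of 5 against 5 libraries overlapped for each member in each polarization and each pair of genotypes. The share of all genes with such overlap was not determined, so this is a description of the members only. The comparisons with 254I share its libraries.

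Within M1, where the members were high and varied least, the log2 difference between 254V and 254I lay between -0.05 and 0.05 for all 9 members. For Gbp2 it was 0.01, with a 95% confidence interval of -0.668 to 0.686, and for Gbp2b 0.05 (-0.434 to 0.525). These intervals use a spread estimated over all 45 libraries, M0 and M2 included, so they do not measure the spread within M1. For 284R against 254I, the largest difference was that of Gbp5, at 0.27 (SE 0.341, 95% confidence interval -0.402 to 0.935, adjusted p = 0.977 in edgeR). When only the libraries compared were fitted, it was 0.262 with a smaller SE of 0.129 (adjusted p = 0.831 in edgeR). Gbp5 stood at 1365, 984, 1192, 1160 and 1151 CPM in 254I replicates 1 to 5, at 1322, 1047, 1209, 1188 and 1121 in 254V, and at 1263, 1013, 1648, 1536 and 1578 in 284R. Replicates 3, 4 and 5 of 284R were above all 10 libraries of the other genotypes, while replicates 1 and 2 were within their range. Cxcl9 was likewise highest in these 3 libraries, at 5340, 4723 and 5125 CPM beside a highest value of 3659 CPM in the other genotypes. Gbp2b went the other way, with 1489 ± 215 CPM in 284R (SD, n = 5) beside 1719 ± 350 in 254I and 1775 ± 322 in 254V, a difference that was not called (adjusted p = 0.975 against 254I in edgeR). Compared within replicate numbers, 5 of the 27 sets of 1 member and 1 pair of genotypes in M1 had all 5 differences in 1 direction, as did 1 of 27 in M0 and 2 of 27 in M2. In M1, Gbp2 was higher in 284R than in both other genotypes at each of the 5 numbers, Gbp6 was higher and Gbp2b lower in 284R than in 254V, and Gbp3 was higher in 254V than in 254I. The set in M0 was Gbp6, higher in 284R than in 254V, a pair that was not tested within M0. Those in M2 were Gbp7, higher in 284R and in 254V than in 254I. These counts are a description. The share over all genes was not determined, the sets share libraries, and in M2 the numbers were not taken to pair libraries. In the fit with the replicate number as a block, none of the members was called in any genotype comparison tested.

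**Figure D4:**
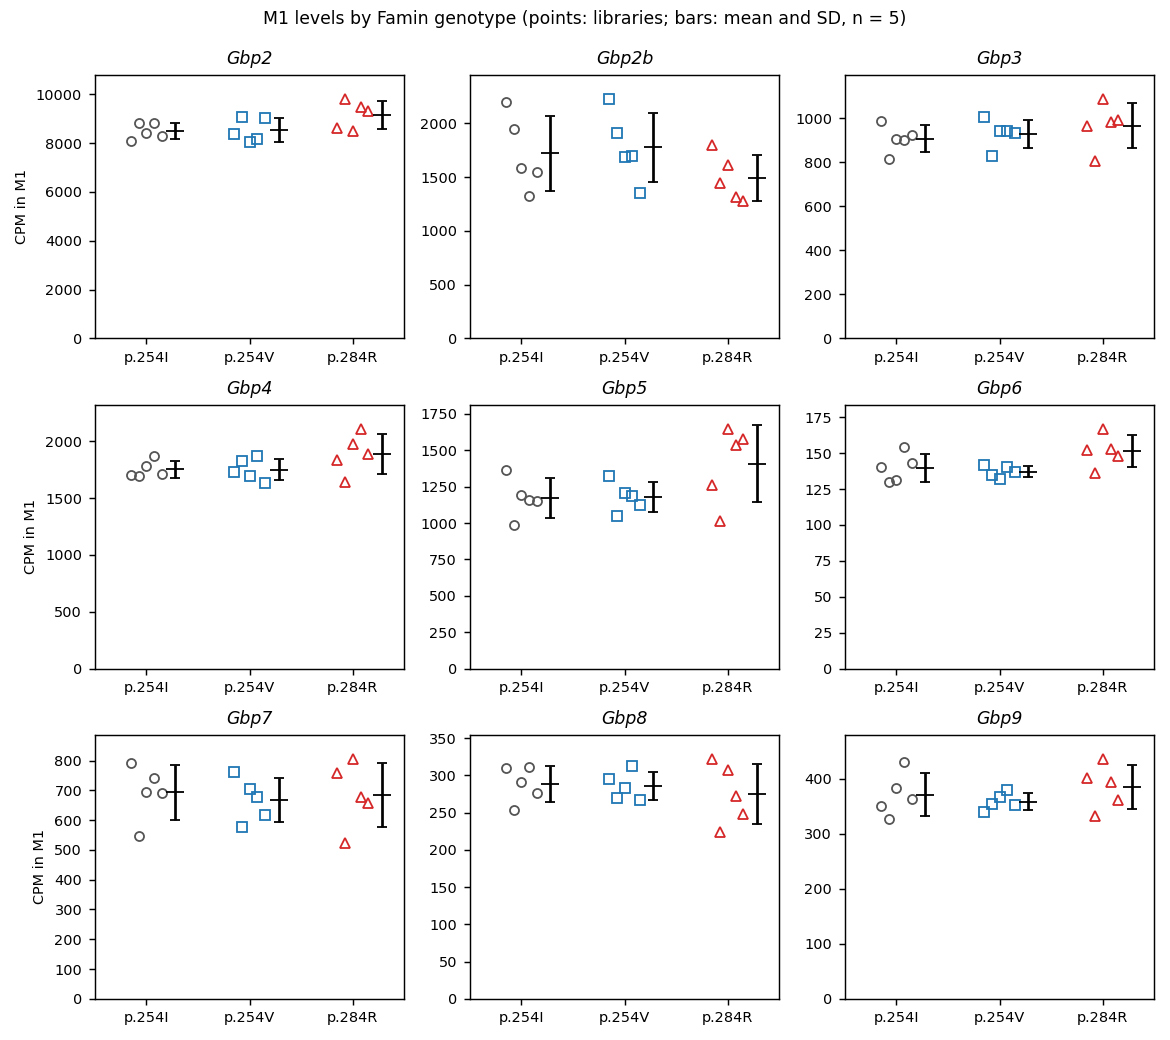
CPM of each member in the 15 M1 libraries by Famin genotype, on linear axes from 0. Points are libraries (replicates 1 to 5 from left to right) and bars are the mean and SD of 5. The genotypes overlap for each member, and 3 of the 5 284R libraries lie above all others for Gbp5.

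In M0, all 9 members were lower in 284R and in 254V than in 254I by the fitted value, with medians of -0.34 and -0.34 on the log2 scale and no member called. The largest was Gbp6 in 254V against 254I, at -1.55 (SE 0.4, unadjusted p = 0.000385 and adjusted p = 1 in edgeR). Its values were 2.05, 2.18, 1.26, 8.41 and 0.441 CPM in 254I replicates 1 to 5, 1.31, 1.45, 0.632, 0.781 and 0.664 in 254V, and 1.81, 2.24, 1.16, 1.20 and 0.791 in 284R. The difference rested in part on replicate 4 of 254I. At only 1 of the 5 numbers was 254V higher than 254I. Without 254I replicate 4 the difference was still -0.63 (SE 0.281) and not called, whereas that of 284R moved from -0.95 to -0.03. Gbp9 in 254V moved from -0.53 to -0.09. The sign of Gbp4 and Gbp8 in 284R, and of Gbp2b and Gbp8 in 254V, turned positive.

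The response to polarization was also compared between genotypes by interaction terms. In edgeR, 0 of 9 members were called for M1 against M0 in 284R against 254I, 0 for 254V against 254I, and 0 in the 2 corresponding terms for M2 against M0. In each of the 4, 0% of all genes were called. At an unadjusted p under 0.05, Gbp6 passed in both M1 terms, beside 2.76% of all genes for 284R and 0.86% for 254V, and Gbp9 in the M2 term of 254V beside 1.29%. The interaction of Gbp6 for M1 against M0 was 1.53 (SE 0.475) in 254V and 1.07 (SE 0.453) in 284R, and 0.64 and 0.18 without 254I replicate 4. The M1 response within each genotype, for which no difference was called, is given as a description for Gbp2, Gbp6 and Gbp4. For Gbp2 the log2 fold change was 6.77 in 254I, 7.08 in 254V and 7.17 in 284R, with an SE of 0.445 to 0.453 each. For Gbp6 it was 5.63 in 254I, 7.16 in 254V and 6.70 in 284R, with an SE of 0.329 to 0.368 each, and for Gbp4 it was 8.81, 9.63 and 9.39. The interaction of Gbp4 for M1 against M0 was 0.814 in 254V and 0.581 in 284R. Without 254I replicate 4 it was 0.202 and -0.039.

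Members varied together between mice in M0 and less so after polarization. Deviations of log2 CPM from the genotype means were correlated over the 15 libraries of each polarization, as a description. In M0 all 36 pairs of members had a Pearson r above 0, between 0.57 and 0.99 with a median of 0.84 (median Spearman rho 0.83). Gbp2, Gbp3, Gbp5 and Gbp7, all on chromosome 3, had an r of 0.98 or 0.99 with each other. Gbp2b, which lies between Gbp3 and Gbp2 and had few reads in M0, had an r of 0.61 to 0.69 with them. For Gbp4, on chromosome 5, it was 0.87 to 0.91. In M1 the median r was 0.48 and 25 of 36 pairs were above 0. Gbp2 had a negative r with each of the other 8 members, from -0.18 with Gbp4 to -0.79 with Gbp7, while Gbp3 and Gbp5 (0.93), Gbp3 and Gbp7 (0.91) and Gbp7 and Gbp8 (0.88) rose and fell together. In M2 the median r was 0.51 with a lowest value of -0.37 (Gbp3 with Gbp6) and a highest of 0.94 (Gbp2 with Gbp3).

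These points share the replicate number. After the mean of each number was also removed, the median r was 0.84 in M0, 0.43 in M1 and 0.08 in M2. Without 254I replicate 4 the medians were 0.86, 0.51 and 0.64, and the lowest r in M2 was -0.05. The first setting still holds that mouse and the second still holds the number. How far members vary together beyond both was therefore not determined. Between polarizations, a mouse's deviation in M0 went with that in M2 (r from 0.40 to 0.92 over 15 mice, highest for Gbp5 and Gbp4) more than with that in M1 (r from -0.21 to 0.46). Gbp2b was an exception, with an r of 0.79 between M1 and M2 and 0.46 between M0 and M1.

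**Figure D5:**
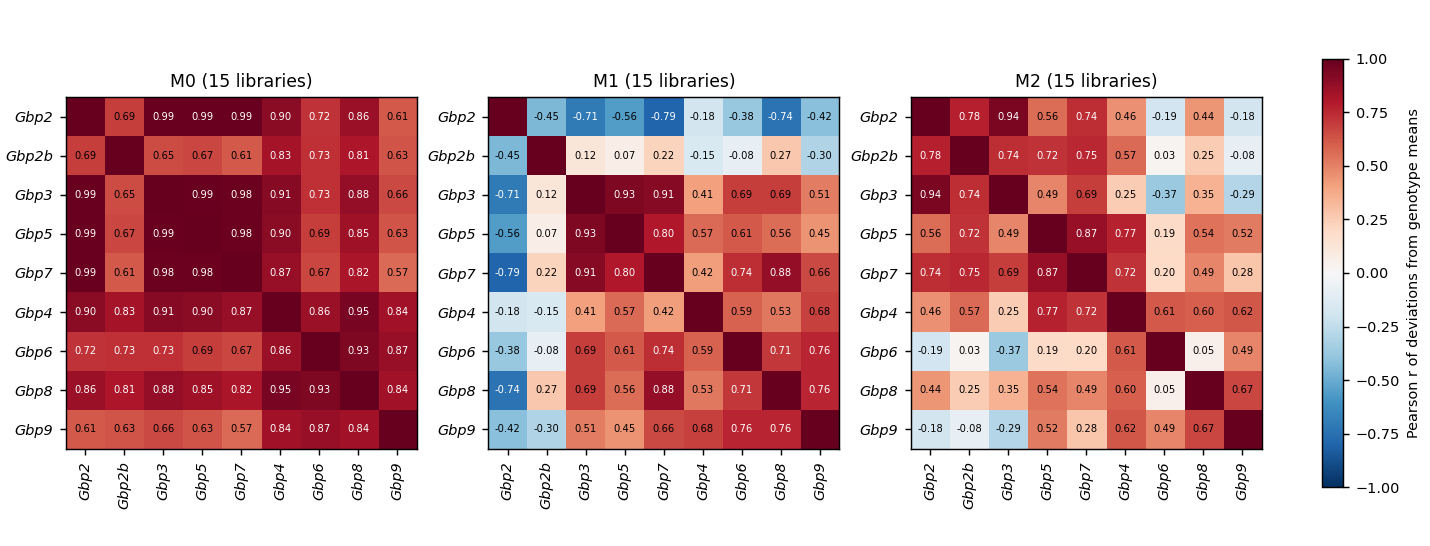
Pearson r between members of the deviations of log2 CPM from the genotype means over 15 libraries, in M0, M1 and M2, with the chromosome 3 members first. All values are positive in M0, and in M1 Gbp2 is negatively correlated with each of the other 8.

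Genes outside the family with the most similar deviations over all 45 libraries, among 11132 genes with a mean of at least 1 CPM, are given as a description. For Gbp2, Gbp3 and Gbp7, the nucleoside transporter gene Slc29a3 (r = 0.91, 0.91 and 0.88) and the UDP-sugar receptor gene P2ry14 (r = 0.86, 0.91 and 0.89) were among the 3 closest. March1, a ubiquitin ligase gene, was among the 3 closest of Gbp2 (0.88) and Gbp3 (0.86). Gbp5 was closest to Eloa (0.87), Il18bp (0.84) and Slc29a3 (0.84). For the chromosome 5 members the closest genes were Iigp1 (0.92) for Gbp4, Slfn1 (0.87) for Gbp6, Fgl2 (0.85) for Gbp8 and Gm4951 (0.90) for Gbp9. Gbp2b was less like any gene, with Cutc (0.73) at the top. These deviations carry the replicate number and the library of 254I replicate 4.

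Genes that act with the guanylate-binding proteins were followed in lists of known function. Of 8 immunity-related GTPases tested, interferon-induced enzymes that share vacuoles with the guanylate-binding proteins, 7 were higher in M1 than in M0 and 0 lower, with a median log2 fold change of 4.46. Tgtp1 (10.38, SE 0.272), Iigp1 (7.04, SE 0.332), Tgtp2 (5.90, SE 0.254) and Igtp (5.17, SE 0.144) changed the most. Tgtp1 and Tgtp2 are near-identical copies, so their separate values are uncertain. In M2 6 were lower and 1 higher than in M0, with a median of -1.20, and Iigp1 (-3.70, SE 0.329) fell the most. Irgc1, a family member known from testis, was the one that rose (3.95, SE 0.372).

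Of 11 IFN-γ signalling genes, 8 were higher in M1 and 2 lower, with a median of 1.35. Socs1, a feedback inhibitor of JAK kinases, rose by 7.33 (SE 0.119) on the log2 scale, and the transcription factors Irf1 and Stat2 by 3.75 and 1.93. In M2 4 were higher and 5 lower, beside 36.8% and 39.6% of all genes. Socs1 (5.15, SE 0.114) and Jak2 (1.30, SE 0.0458) rose in M2 too, whereas Irf8 fell (-0.92, SE 0.0575). Of 10 inflammasome and cytosolic LPS partners, 9 were higher in M1 and 1 lower, with a median of 1.18. Casp4, the cytosolic LPS sensor, rose by 2.02 (SE 0.0719), Casp1 by 1.83, the DNA sensor gene Aim2 by 1.44 and the pore-forming Gsdmd by 1.29. In M2 4 were higher and 6 lower, among them Il1b (-1.84, SE 0.315), Il18 (-1.66) and Nlrp3 (-1.45).

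The enzymes that modify CaaX ends changed little. Of 6, 3 were higher and 2 lower in M1, with a median of 0.04, and the largest change was that of the farnesyltransferase subunit Fnta (-0.24, SE 0.0303). In M2 4 were higher and 0 lower, led by Fntb (0.22, SE 0.0552). Of 12 genes of ATG8 conjugation and vacuole targeting, which recruit interferon-induced GTPases to vacuoles, 3 were higher and 7 lower in M1, with a median of -0.19. Gabarapl1 (-1.18, SE 0.0711), Map1lc3b (-0.65) and Map1lc3a (-0.63) fell, and Atg16l1 rose (0.42, SE 0.0436). In M2 4 were higher and 6 lower. The M1 counts of all lists stand beside the 37% and 40.3% of all genes called higher and lower in M1. In the last 2 lists they are not far from it. For M2 the shares of all genes were 36.8% higher and 39.6% lower. The M2 counts of the IFN-γ signalling, inflammasome and ATG8 lists are not far from these, so they are not read as results about those lists.

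Gbp10 and Gbp11, which are no members of the list, followed the M1 pattern. Gbp10 had 7 reads over the 15 M0 libraries, 2 over the 15 M2 libraries and between 27.8 and 74.3 CPM in M1. Of its 50-base windows, 84.1% occur in another gene, with 73.3% in Gbp6 and 72.1% in Gm43302. It also shares 1792 exon bases with Gm43302 on the same strand, so its level is uncertain. Gbp11, annotated as a polymorphic pseudogene, had a highest value of 0.369 CPM in M0 and 0.603 CPM in M2 and between 59.6 and 99.3 CPM in M1 (log2 fold change 9.94, SE 0.214).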

How the data were processed

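Poly(A) RNA libraries (stranded, single-end, 50 bases) of 45 macrophage cultures were analysed. The authors deposited counts (whole reads for each Ensembl gene, not normalized) and a table of CPM for 11900 genes. Reads recovered from the CPM steps were whole for 100% of values (tolerance 0.01 read) and equalled the counts for 100%. The submitters' processing notes and the study's methods name FastQC, Trim Galore, HISAT2 and mm10, whereas the series text names Cutadapt and STAR. The counter, its annotation and its use of strand are not given in the sources used here.

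Counts were fitted in R 4.3.3 with edgeR 4.0.16 (filterByExpr over 9 groups, TMM factors 0.939 to 1.10, robust glmQLFit). Genes with an adjusted p under 0.05 (Benjamini-Hochberg over 12905 genes) were called. All 9 groups shared a single estimate of each gene's spread, so SEs and p-values within a polarization do not measure the spread there alone. Levels are TMM-scaled CPM, and log2 CPM used a prior count of 2. Symbols, coordinates and merged exons came from GENCODE for mm10, and promoters from RefSeq. On simulated counts for M1 against M0 (12686 genes), 98 of 100 genes changed 2-fold were called. Within M1, for 284R against 254I, 98 of 100 were called too. The changed genes were drawn among well-expressed genes, and the simulated counts held no effect of the replicate number. These shares therefore do not give the power to call a 2-fold change in the members.

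Named genes were the 9 members, Gbp10, Gbp11, the 3 most similar genes per member and up to 4 called genes per list with the largest change, except 1 gene that is not reported here. Cxcl9, Ifit2 and Iigp1, where given beside single libraries, were chosen after their values were seen, and Lacc1 because it is the altered gene. The members and lists were chosen with earlier results of these data known. Groups came from the labels. Libraries of a mouse pair by design. Same-numbered libraries of different genotypes deviated together over 8404 genes. Their r was over 0.1 in 15 of 15 pairs in M0 and in M1 and in 13 of 15 in M2. The median r was 0.68, 0.49 and 0.44 in M0, M1 and M2, and the lowest was 0.1, 0.23 and -0.44. From the pair counts, numbers were taken to pair libraries in M0 and M1. That replicates are separate mice is read from the numbering, and no 2 libraries were identical. Alternatives were DESeq2 (1.42.0) and limma-voom (3.58.1), DESeq2 size factors, no scaling, no filter, at least 10 counts in every library, replicate number or mouse as a block, only the libraries compared, each mouse left out and, chosen after seeing the data, the reads recovered from the CPM table and the spread and covariation of members without 254I replicate 4.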

Additional observations from a re-analysis of the deposited data

Results flagged for a closer look

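Of 81 sets of 5 libraries (9 members in 9 groups), 6 had a highest or lowest library whose gap to the next exceeded 0.71 of the set's range. Chance alone flags about 1 in 20 such sets. In 254I replicate 4, Gbp6 in M0 stood at 8.41 CPM (0.441 to 2.18 in the other 4), Gbp9 in M0 at 112 CPM (30.1 to 47.0) and Gbp9 in M2 at 33.7 CPM (14.1 to 16.7). Gbp5 in 254I M2 was lowest in replicate 5, at 1.64 CPM (2.51 to 2.77 in the others). Gbp8 in 254I M2 was lowest in replicate 3, at 0.875 CPM (1.49 to 1.70). Gbp9 in 284R M2 was highest in replicate 1, at 23.4 CPM (15.1 to 17.5).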

How the results depend on the processing

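All 9 members kept their direction and their call in M1 against M0 and M1 against M2 under each alternative in which they were tested, and no member was called between genotypes or in an interaction under any. For M2 against M0, a minimum of 10 counts in every library left 6 members, of which 5 were called (1 higher and 4 lower) instead of 8, because Gbp2b, Gbp4 and Gbp6 were no longer tested. Calls of Gbp3 and Gbp8 in M2 against M0 depended on the tool, the scaling or 1 mouse, as given with them, and the cause was not tested. Leaving out each mouse in turn moved the log2 fold change of Gbp3 between -0.488 and -0.323. In the fit with a block for the number, Gbp2 in M2 against M0 was 0.783 (adjusted p = 4.43e-05 in edgeR) and Gbp5 in 284R against 254I within M1 was 0.306 (adjusted p = 0.777), and neither the number nor the mouse as a fixed block changed a call of any member. Without TMM the mean log2 scaling of the libraries moved by -0.103 in M1 against M0 and by -0.065 in M2 against M0, and single genes moved by other amounts. Depth limits Gbp2b, Gbp4, Gbp6 and Gbp8 in M0 and M2, where values rest on between 0 and 246 reads per library.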
